A study of Mus musculus with 6 samples.

Results

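Onecut1, Onecut2, Foxp1, Foxp2, Foxp4, Ebf1, Ebf2 and Ebf3 are 8 transcription factor genes of 3 families, and their transcripts were followed in motoneurons from the cervical cord of both sides. The members were taken by name, as every probe set that the annotation of the array gives to exactly one of these 8 symbols, out of 18193 genes so annotated. This gave 33 probe sets, of which 26 passed the signal limit of the methods (a highest signal of at least 200 over the 6 arrays), with at least 1 for each gene. The 7 others belonged to Foxp1 (2), Foxp2 (2), Foxp4 (2) and Ebf1 (1). The tissue came from 3 mouse embryos of 1 litter at E11.5, all carrying the HB9::GFP transgene, in which the promoter of the motoneuron gene HB9 (Mnx1) drives green fluorescent protein. The fluorescent region of each side was laser-captured from shared sections, so each embryo gave 1 left and 1 right pool, with no treatment and no other genotype. A pool is a captured piece of tissue with everything that lies between the motoneurons, and in such samples fewer cells of a type and less RNA per cell cannot be told apart. Nothing in the labels gives a batch, so an embryo and the handling its pools shared cannot be told apart either.

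Foxp factors are forkhead repressors that act as dimers. Foxp1 works with Hox proteins in motoneurons, where a high level sets the identity of the lateral motor column that innervates the limb, and it is needed there for Aldh1a2, the enzyme that makes retinoic acid. Onecut factors bind DNA through a cut domain and a homeodomain, are switched on in newborn spinal neurons and act upstream of Isl1 in motoneurons. Ebf factors are helix-loop-helix proteins of young postmitotic neurons that act downstream of proneural factors, and they are also made in mesenchyme. The comparison asked whether any of these regulators differs between the left and right motor pools, as part of the search of the study for a genetic left-right imprint.

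All 7 generic motoneuron genes (Mnx1, Isl1, Isl2, Chat, Slc18a3, Slc5a7 and Prph) passed the limit, with Mnx1 at 3520 to 5219 and Chat, the enzyme that makes acetylcholine, at 198 to 467. The arrays had medians from 99.6 to 118 and had been scaled by the authors to a common trimmed mean. The right pool of embryo 1 stood apart in mesenchyme transcripts. Over 12 such genes, the summed signal (1 probe set per gene) was 18079 there, against 1238 to 2376 in the left pools and 2344 to 3010 in the other right pools, and 9 of the 12 passed the limit, with Meox1, Twist1 and Twist2 below it. In embryo 2 the sum was also higher on the right, at 3010 against 1238 on the left, whereas in embryo 3 it was 2344 against 2376.

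No member passed the test for a difference between the sides. Probe sets of a gene are named by the order of their mean signal, from the brightest. With limma, 0 of the 26 tested probe sets had an adjusted p under 0.05, as was the case for all 21853 tested probe sets (0% called), and 0 of the 26 had an unadjusted p under 0.05, which 3.40% of all probe sets had (1.92% higher on the right and 1.48% on the left). By the fold rule of the methods (the same sign of log2(R/L) in all 3 embryos, and more than 1.5-fold for the mean and for 2 or more embryos), 2 of the 26 were higher on the right and 0 on the left, namely 1 of 4 probe sets of Foxp2 and the single tested one of Foxp4. Over all tested probe sets, 2.40% were higher on the right by this rule and 1.55% on the left, 3.94% in all. The Foxp4 probe set reached 200 in the right pool of embryo 1 alone, so the filter fixed its sign in that embryo. With a filter on the mean signal (at least 200), the rule was met by 1 member probe set and by 410 in all. Without embryo 1 the count of members was 0, and without embryo 2 it was also 0. Ratios had the same sign in all embryos for 8 of 26, against 23.5% of all probe sets. The median log2(R/L) was 0.15 over the 26 and 0.02 over all. Probe sets of 1 gene read the same RNA, so they are not independent of each other.

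**Figure D1:**
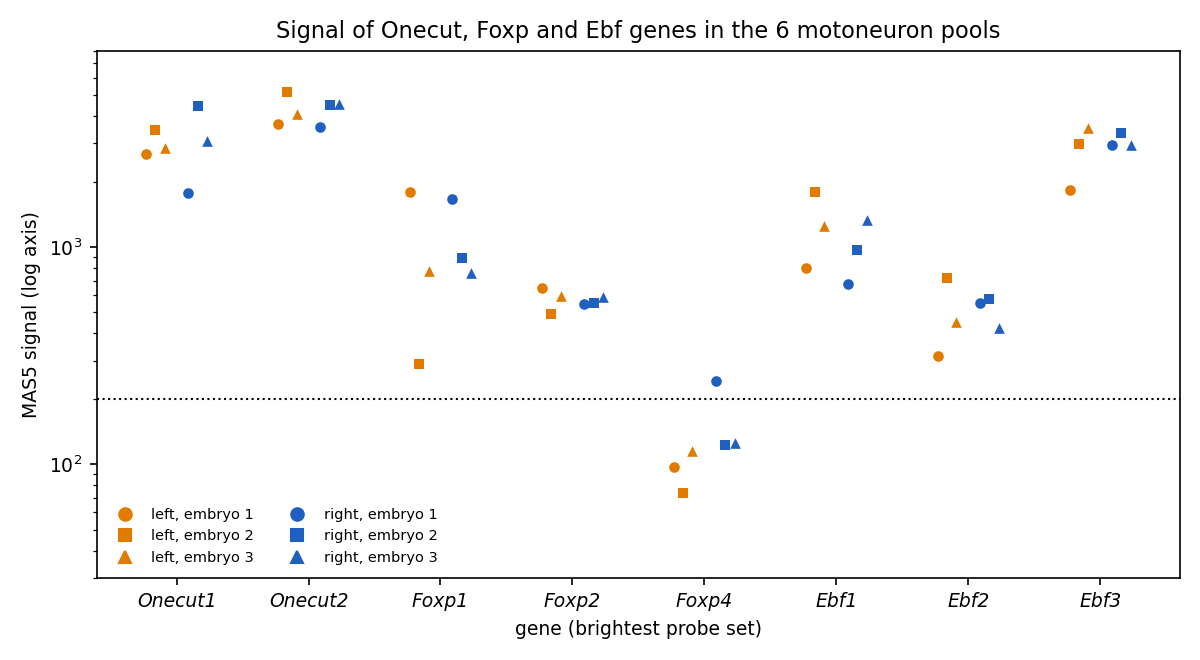
MAS5 signal on a log axis for the probe set with the highest mean signal of each of the 8 genes, with left pools in orange and right pools in blue, for embryo 1 (circles), 2 (squares) and 3 (triangles), with a dotted line at the signal limit of 200. Onecut1 is lowest in both pools of embryo 1 and Foxp1 highest there, whereas the sides overlap for every gene but Foxp4, which exceeds the limit in the right pool of embryo 1 alone. Heights of different genes come from different probes and cannot be compared.

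**Figure D2:**
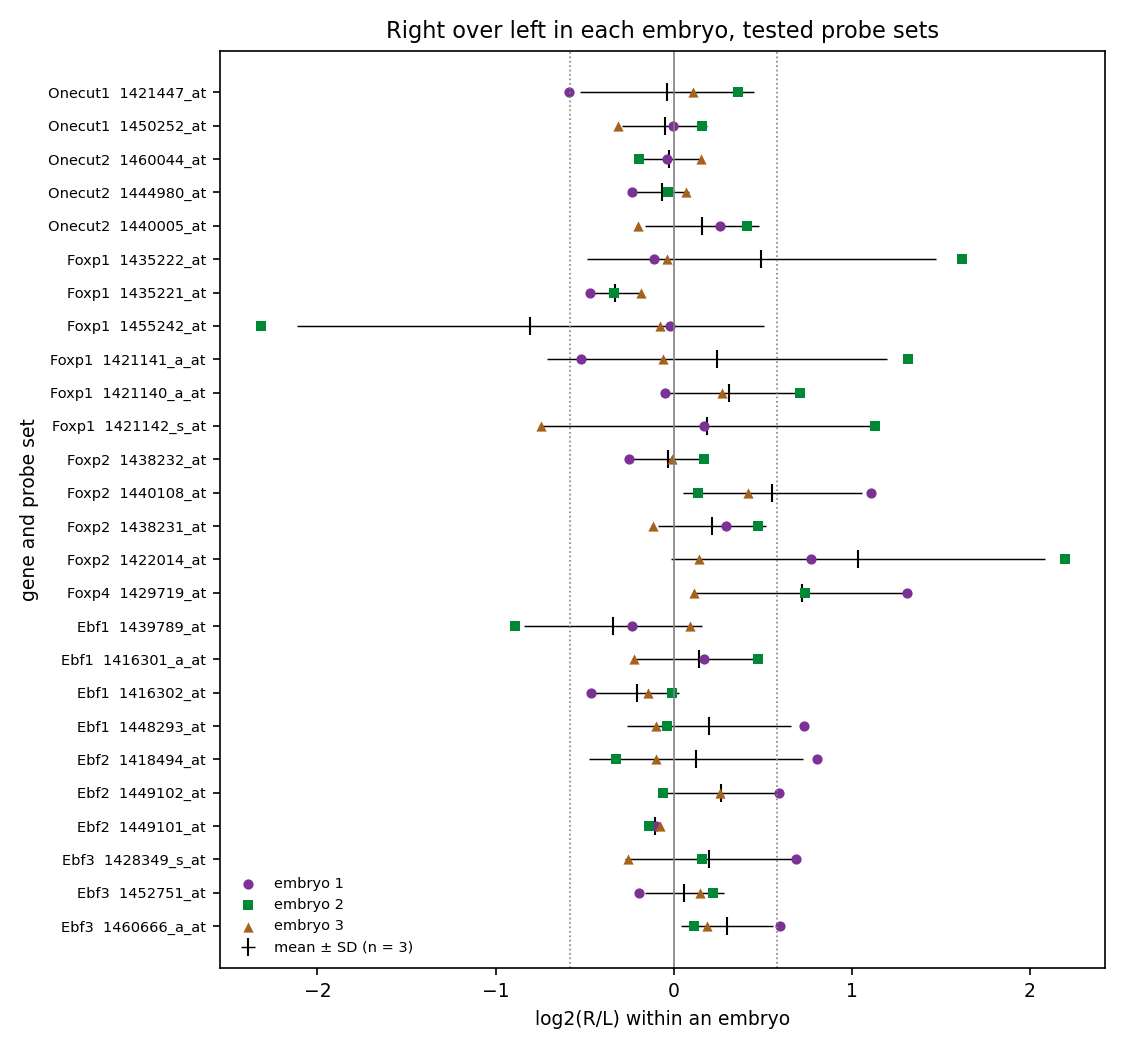
Log2(R/L) of the 26 tested probe sets within embryo 1 (circles), 2 (squares) and 3 (triangles), with the mean and SD over the 3 embryos in black and dotted lines at 0.58 on either side of 0. The Onecut ratios lie between −0.59 and 0.41, and the widest spread is that of Foxp1, whose probe sets go opposite ways in embryo 2.

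Both Onecut genes were read in every pool at similar levels on the 2 sides. Onecut1 read 2671, 3454 and 2839 in the left pools (embryos in order of their number, here and below) and 1781, 4433 and 3065 in the right pools. The right pools span the widest range, and the left values fall inside it. Its log2(R/L) averaged −0.04 ± 0.49 (SD, n = 3 embryos), with a 95% interval from limma of −0.48 to 0.40 (adjusted p = 0.993). The dimmer probe set of Onecut1 averaged −0.05 ± 0.24. Onecut2, which overlaps with Onecut1 in the cells it marks, had left signals of 3683, 5154 and 4072 and right signals of 3583, 4507 and 4538. Its log2(R/L) averaged −0.03 ± 0.18 (interval −0.33 to 0.28, limma adjusted p = 0.993), and the other 2 probe sets averaged −0.07 and 0.16. A difference of 1.5-fold (0.58 in log2) lies outside the intervals of both brightest probe sets, but inside that of the dimmer Onecut1 probe set (−0.59 to 0.49).

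Onecut signals were lowest in embryo 1. In 5 of 5 probe sets both pools of embryo 1 lay under all 4 pools of the others, a pattern held by 11.9% of all tested probe sets and picked out after the values were seen. Averaged over both pools, Onecut1 was 1.79-fold and 1.84-fold higher in embryo 2 than in embryo 1 by its probe sets, and 1.35-fold and 1.14-fold higher in embryo 3. The 3 probe sets of Onecut2 were 1.33-fold to 1.53-fold higher in embryo 2 than in embryo 1. By the F test of limma over embryos, 3 of the 5 had an unadjusted p under 0.05, against 15.3% of all probe sets, and the lowest adjusted p was 0.213. Embryo 1 kept the lowest mean in 5 of 5 when each array was scaled to its median, although the pools were then fully apart in 2. Of 6 tested progenitor genes, 2 were also lowest in both pools of embryo 1. These were Sox2, at 26.3 and 193 against 443 to 964, and Nes, at 2056 and 2570 against 3380 to 3902. The others (Hes5, Nkx2-2, Pax6 and Vim) were not. The part of progenitors in the Onecut signals was not tested.

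Foxp1 was the member with the largest differences between embryos. Its brightest probe set had left signals of 1799, 290.4 and 778 and right signals of 1666, 894 and 760. The second brightest had left signals of 1832, 441 and 1134 and right signals of 1321, 349 and 1001. In both, embryo 1 was highest, embryo 3 came next by the mean of its pools, and embryo 2 was lowest. Both pools of embryo 1 exceeded all 4 others in 6 of 6 tested probe sets, against 9.93% of all probe sets, and embryo 1 remained highest in 6 of 6 under quantile normalization and median scaling. Embryo 2 had the lowest mean in 5 of 6, and in the fifth by brightness it was level with embryo 3. Averaged over both pools, embryo 1 was 1.76-fold to 3.97-fold above embryo 2 and 1.46-fold to 2.25-fold above embryo 3. The F test asks whether the 3 embryos differ and does not single out embryo 1. The second brightest passed it (limma adjusted p = 0.0300), as did 0.270% of all probe sets. Its adjusted p was 0.00651 without embryo 1, where embryos 2 and 3 alone were compared. It was 0.227 without embryo 2 and 0.136 without embryo 3. With all embryos, 5 of the 6 had an unadjusted p under 0.05, against 15.3% of all probe sets. These p-values measure embryos against the spread between the 2 pools of an embryo.

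Between the sides, the probe sets of Foxp1 disagreed, and they did so in embryo 2. There log2(R/L) was 1.62, 1.31, 1.13 and 0.71 in 4 probe sets, but −2.32 in the third by brightness and −0.34 in the second. In the third, the right pool of embryo 2 read 112 and the left 557, whereas in the brightest the right was the higher of the pair. In embryos 1 and 3 the same 6 ratios lay between −0.74 and 0.27. The mean ratios ran from −0.80 ± 1.31 to 0.49 ± 0.98 (SD, n = 3 embryos), and the lowest limma adjusted p was 0.974. The brightest probe set averaged −0.07 without embryo 2. The 2 probe sets under the limit read at most 63.7 and 48.2. The dimmest tested probe set of Foxp1 and the brightest of Ebf3 are of a type that can also read other transcripts.

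**Figure D3:**
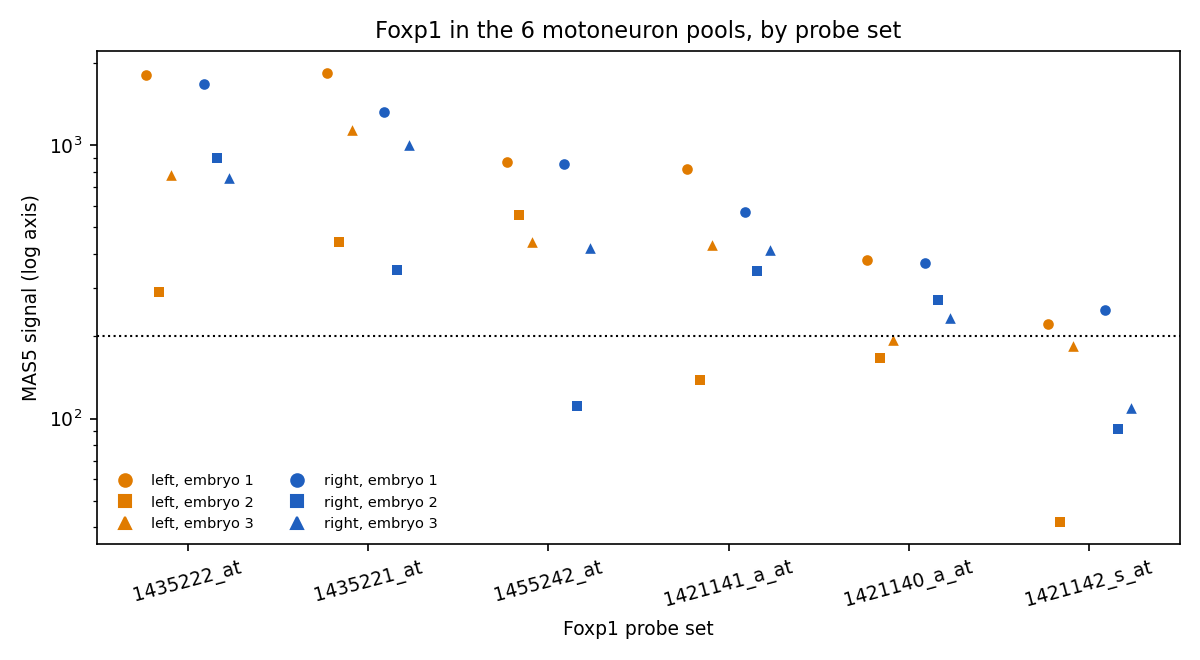
MAS5 signal on a log axis of the 6 tested Foxp1 probe sets with left pools in orange and right pools in blue, for embryo 1 (circles), 2 (squares) and 3 (triangles), with a dotted line at 200. Both circles are the highest points of each probe set, and the squares of embryo 2 change order between probe sets.

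RefSeq (GRCm38.p6) gives Foxp1 several starts, and 3 windows of 250 bases upstream of them were at hand, together with 1 for Onecut1. They are shown because embryo 1 held the highest signals of one gene and the lowest of the other. The Foxp1 windows are chr6:99520994-99521243, chr6:99266516-99266765 and chr6:99028299-99028548 on the minus strand, and the Onecut1 window is chr9:74861671-74861920 on the plus strand. Each is written 5′ to 3′ along the gene, with capitals for matches on either strand to the forkhead core TGTTTA, the Onecut cores ATCAAT and ATCGAT or the Ebf motif CCCNNGGG, and no matches overlapped.
Foxp1, window a: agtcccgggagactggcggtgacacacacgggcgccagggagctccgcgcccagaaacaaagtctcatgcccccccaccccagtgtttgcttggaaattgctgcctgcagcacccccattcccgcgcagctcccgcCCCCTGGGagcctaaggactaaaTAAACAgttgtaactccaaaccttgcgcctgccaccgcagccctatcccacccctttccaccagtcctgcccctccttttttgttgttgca
Foxp1, window b: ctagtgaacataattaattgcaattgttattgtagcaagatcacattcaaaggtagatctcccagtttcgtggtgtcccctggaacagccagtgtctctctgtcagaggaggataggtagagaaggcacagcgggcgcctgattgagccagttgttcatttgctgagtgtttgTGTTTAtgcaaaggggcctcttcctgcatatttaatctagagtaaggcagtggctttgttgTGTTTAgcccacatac
Foxp1, window c: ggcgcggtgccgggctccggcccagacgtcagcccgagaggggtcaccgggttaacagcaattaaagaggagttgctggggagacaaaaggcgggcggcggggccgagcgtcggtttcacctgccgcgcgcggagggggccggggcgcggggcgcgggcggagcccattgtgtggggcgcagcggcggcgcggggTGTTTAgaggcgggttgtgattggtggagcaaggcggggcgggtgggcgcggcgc
Onecut1: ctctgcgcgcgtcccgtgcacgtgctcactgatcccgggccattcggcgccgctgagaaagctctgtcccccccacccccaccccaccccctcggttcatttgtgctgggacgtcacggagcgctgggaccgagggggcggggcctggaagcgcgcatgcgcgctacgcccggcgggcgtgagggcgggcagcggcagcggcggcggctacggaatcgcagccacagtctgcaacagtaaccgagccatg
The forkhead core was in 3 of the 8 windows found for 5 of the members, and in 12.0% of all 32851 windows of the table. Those 3 were the Foxp1 windows, which belong to 1 gene. The Ebf motif was in window a of Foxp1, in 2 of the 8 windows, and in 11.8% of all windows. An Onecut core was in 0 of the 8 windows and in 7.40% of all windows. These are matches of letters and no evidence of binding.

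Genes of the motor columns were set beside Foxp1. Of 15 such genes 12 were tested, 0 met the fold rule or passed limma, and their median log2(R/L) was 0.02, the same as over all probe sets. Etv4, Hoxc8 and Hoxc9, which mark limb pools and more caudal levels, stayed under the limit. Both pools of embryo 1 were highest in 5 of the 12 (Aldh1a2, Hoxc6, Lhx3, Mnx1 and Pou3f1), against 9.93% of all probe sets, named after their values were seen. They were lowest in 1 of the 12, Hoxc5, at 4660 and 4375 against 5703 to 6746. Aldh1a2 had left signals of 975, 45.9 and 402 and right signals of 865, 68.5 and 352 (F test over embryos, limma adjusted p = 0.0163). Hoxc6, a Hox gene of limb level, had left signals of 746, 68.9 and 359 and right signals of 464, 144 and 361 (limma adjusted p = 0.0977). Both had the order of embryos seen in Foxp1. Peripherin (Prph), an intermediate filament of motoneurons, was also highest in both pools of embryo 1, at 23019 and 23486 against 10514 to 15618 (limma adjusted p = 0.0300). The summed signal of the 7 generic motoneuron genes was 38462 and 38274 in embryo 1 and 21262 to 30053 in the other pools, with Prph the largest term. Both pools of embryo 1 were highest in 3 of the 7 (Mnx1, Prph and Slc5a7), against 9.93% of all probe sets. Isl1 and Chat were highest in the left pool of embryo 2 (5991 and 467), and Isl2 and Slc18a3 in a single pool of embryo 1. The part of motoneuron content in the Foxp1 signals was not tested.

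Foxp2, which is made by some of the V1 interneurons, had a mean ratio near 0 in its brightest probe set and above 0 in the other 3, and none passed limma. That probe set had left signals of 647, 492 and 594 and right signals of 544, 553 and 590.0, with a log2(R/L) of −0.03 ± 0.21 (SD, n = 3; limma adjusted p = 0.995). The dimmest of the 4 tested met the fold rule, with left signals of 140, 51.4 and 302 and right signals of 239, 235 and 333. Its log2(R/L) averaged 1.04 ± 1.05, with 2.20 in embryo 2 and a mean of 0.46 without that embryo, and the limma adjusted p was 0.974. In embryo 2 the summed mesenchyme signal was also higher on the right, at 3010 against 1238 on the left. The second brightest did not overlap between the sides, with 277 to 294 on the left and 323 to 635 on the right (of all probe sets, 2.98% were apart with the right higher and 2.45% with the left higher, 5.43% in all). Its highest value was in the right pool of embryo 1, which also held the most mesenchyme transcripts, and its log2(R/L) there was 1.11 against 0.14 and 0.42 in embryos 2 and 3. The part of mesenchyme in either probe set was not tested. The last of the 4 averaged 0.22, and the 2 under the limit read at most 116 and 58.7. The mean log2(R/L) over the 4 tested probe sets was 0.44 (limma adjusted p = 0.965).

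Foxp4, which with Foxp2 helps newborn neurons leave the neuroepithelium, was close to the floor of the arrays. Its tested probe set had left signals of 97.5, 73.4 and 115 and right signals of 242, 122 and 125, so it passed the limit through the right pool of embryo 1 alone and had to differ in that embryo. It met the fold rule with a mean log2(R/L) of 0.72 ± 0.60 (limma adjusted p = 0.974), and without embryo 1 the mean was 0.43 and the rule was no longer met. The summed mesenchyme signal was highest in the same pool, and its part was not tested. One of the 2 probe sets under the limit read 84.2 to 101 on the left and 119 to 154 on the right, with log2(R/L) of 0.63, 0.61 and 0.35. The other read at most 70.6, with log2(R/L) of 2.95, −0.73 and −1.69.

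Ebf1 showed no side in common to its probe sets. The brightest had left signals of 796, 1789 and 1251 and right signals of 677, 967 and 1336, a log2(R/L) of −0.34 ± 0.50 (interval −0.85 to 0.16, limma adjusted p = 0.974). The other 3 tested probe sets averaged 0.14, −0.21 and 0.20, and the fifth, under the limit, read at most 40.6. In the dimmest tested one, the right pool of embryo 1 was the highest of all at 381. Both pools of embryo 1 were lowest in 3 of the 4, against 11.9% of all probe sets, a count also made after the values were seen. In the second brightest they read 569 and 640.0, whereas the other pools read 901 to 1513, so that embryo 3 was 2.32-fold above embryo 1 and embryo 2 1.76-fold (F test over embryos, limma adjusted p = 0.131).

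Ebf3 overlapped between sides in all 3 probe sets. The brightest, which is of the type that can also read other transcripts, had left signals of 1837, 2993 and 3530 and right signals of 2960, 3336 and 2959. The second brightest read 1863, 2442 and 2663 against 1628, 2850 and 2949. Log2(R/L) averaged 0.06 ± 0.22 in the second brightest, and 0.20 ± 0.47 and 0.30 ± 0.26 in the others. Limma gave adjusted p-values of 0.985, 0.974 and 0.974. In both of the latter the largest ratio was that of embryo 1 (0.69 and 0.60), the embryo with the most mesenchyme transcripts on the right, and the part of these was not tested. Both pools of embryo 1 were lowest in 1 of the 3 probe sets, the second brightest.

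For Ebf2, both pools of embryo 1 were lowest in 0 of the 3 probe sets, against 11.9% of all probe sets. Its brightest probe set had left signals of 316, 718 and 452 and right signals of 552, 573 and 421. The left value of embryo 1 was the lowest and that of embryo 2 the highest. Log2(R/L) averaged 0.13 ± 0.60 (limma adjusted p = 0.981), from 0.81 in embryo 1 to −0.32 in embryo 2, and it was −0.21 without embryo 1. In the 2 dimmer probe sets both pools of embryo 3 were lowest, at 98.7 and 104 in the dimmest against 174 to 206 elsewhere.

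**Figure D4:**
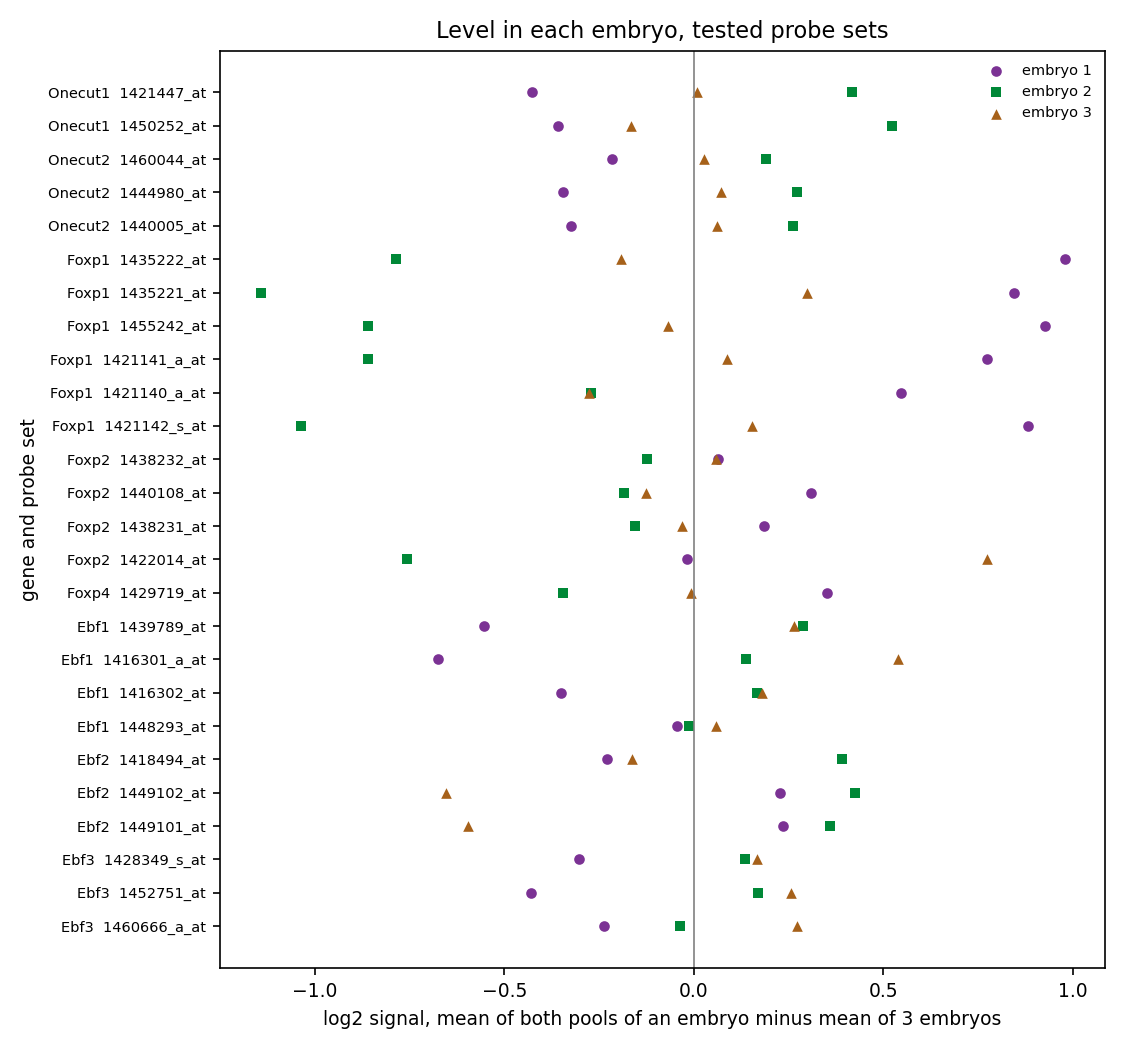
Log2 signal of the 26 tested probe sets, averaged over both pools of an embryo and centred on the mean of the 3 embryos, for embryo 1 (circles), 2 (squares) and 3 (triangles). Embryo 1 lies to the left for Onecut1 and Onecut2 and to the right for Foxp1.

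Over the 26 probe sets, the SD of the 3 embryo means had a median of 0.40 in log2, against 0.26 for all tested probe sets, whereas the SD of log2(R/L) had a median of 0.37 against 0.39. With the F test over embryos, 11 of the 26 had an unadjusted p under 0.05, against 15.3% of all probe sets, and 1 passed after adjustment by limma.

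Genes around these factors were compared in the same way. Of 10 neurogenic factors and Ebf partners, 8 were tested, 0 met the fold rule or passed limma, and the median log2(R/L) was 0.01. Both pools of embryo 1 were the lowest in 5 of the 8 (Insm1, Neurod4, Neurog2, Nhlh1 and Nhlh2), against 11.9% of all probe sets, again named after their values were seen. Neurod4 counts by a narrow margin (73.9 against 74.4 in the right pools of embryos 1 and 2). It reached the limit in the left pool of embryo 2 alone (355). Neurod1 was instead highest in the left pool of embryo 1 (1355). Both pools of embryo 1 were also lowest in 2 of 6 tested progenitor genes (Nes and Sox2) and 3 of 10 ventral interneuron genes (Lhx5, Sox14 and Sox21). Of 2 tested sensory neuron genes, 1 (Pou4f1) was lowest there. The other, Runx1, went the other way with both pools highest, as did 1 of the ventral interneuron genes, Calb1. The part of progenitors, interneurons and sensory neurons in the signals of Onecut, Ebf and neurogenic genes was not tested. Nhlh2, a helix-loop-helix gene of newborn neurons, read 1769 and 1706 in embryo 1 and 3426 to 3898 in the other pools (F test over embryos, limma adjusted p = 0.0572). Neurog2, the proneural factor of motoneuron progenitors, read 134 and 288 in embryo 1 and 367 to 578 elsewhere (limma adjusted p = 0.185). Of 18 corepressors and partners of Foxp proteins, such as the NuRD subunits, 16 were tested, 0 met the fold rule or passed limma, and the median was −0.02. Of the relatives Foxp3, Onecut3 and Ebf4, Ebf4 alone was tested (log2(R/L) 0.41, limma adjusted p = 0.974), and the others read at most 55.0.

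Cell types beside motoneurons can also make these factors. Ventral interneuron genes, 10 of 17 of them tested, had a median log2(R/L) of 0.08. Calb1, a calcium-binding protein of V1 Renshaw cells, met the fold rule on the left, with left signals of 1177, 199.5 and 179 and right signals of 519, 106 and 132 (limma adjusted p = 0.974), while En1, which defines V1 neurons, read at most 67.5. The 9 tested mesenchyme genes had a median log2(R/L) of 1.40, with medians of 3.23, 1.17 and 0.01 in embryos 1, 2 and 3. Of these 9 genes, 4 (Col1a1, Lum, Meox2 and Pdgfra) reached the limit in the right pool of embryo 1 alone and so had to be higher on the right there. The fold rule was met on the right by the collagen Col1a2, the matrix gene Fbln1 and the somite gene Meox2, the last being one of these 4, and Dcn and Col3a1 had an unadjusted p under 0.05. Among progenitor genes (6 tested, median 0.36) Pax6 met the rule on the right with a mean of 0.97 ± 0.19. Cell cycle (5 tested, median 0.20), erythroid (4, 0.21), endothelial (4, −0.24), sensory neuron (2, 0.07) and generic motoneuron genes (7, −0.05) had 0 that met it, although Hba-x, an embryonic globin, had an unadjusted limma p of 0.0445 at a mean of 0.70 ± 0.72. None of these genes passed limma after adjustment.

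The genes whose pattern over the 6 pools lay closest to each member were found from the root mean square difference in centred log2 signal, among 9164 or 9165 other genes. They were Cacng7 for Onecut1 (0.08), Abhd17b for Onecut2 (0.03), Zfp566 for Foxp1 (0.20), Vcp for Foxp2 (0.03), Anxa3 for Foxp4 (0.09), 1600014C10Rik for Ebf1 (0.06), Antkmt for Ebf2 (0.07) and Septin2 for Ebf3 (0.07). Foxp1 spans 2.63 in log2 over the pools, and even its closest gene, Zfp566, ran from 116 to 501. With 6 pools and so many genes close matches are plentiful, and these are descriptions of the arrays.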

How the data were processed

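GFP-positive regions were laser-captured from frozen sections, and amplified biotin-labelled RNA from each pool was put on 1 Affymetrix array. The deposited values are MAS5 signal intensities that the authors computed in Affymetrix Expression Console (version not given in the sources used here), on a linear scale with 1 value per probe set and array. Of 45101 probe sets, 64 controls were left out. Detection calls were not used here, so the filter of the methods on present calls was not repeated. Signals were taken to log2 with no added constant. Probe sets reaching 200 on any array (21853) entered a linear model of side and embryo with a variance trend (limma 3.58.1, R 4.3.3), and p-values were adjusted by Benjamini and Hochberg over all of them. The same fit gave the F test over embryos. The pools of an embryo were paired since each pair shares an animal and its sections, and their deviations from the side means correlated at 0.241, 0.215 and 0.495. An exact sign-flip test of 3 embryos cannot go below 0.25. A gene is described first by its brightest tested probe set. Named are the members, the genes of each list that met the fold rule or had an unadjusted p under 0.05, the first markers of a cell type, and the closest gene to each member. Other genes of the lists were named for their pattern over embryos, or for passing or missing the signal limit. That choice was made after their values were seen. The members and lists were chosen with earlier results of these data known. The number of arrays limits the precision. Promoter windows were read with Python 3.11.15. Alternatives were other normalizations, an added constant of 50, other filters, no term for embryo, no trend, other fold limits, averaging the probe sets of each gene and each embryo left out.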

Additional observations from a re-analysis of the deposited data

How the results depend on the processing

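The 2 member probe sets that met the fold rule became 1 with quantile normalization, 1 with median scaling, 1 with 50 added to each signal, 1 with a mean signal of at least 200, 4 with no filter, 0 at a limit of 2-fold and 0 when all 3 embryos had to pass. With an embryo left out the count ran from 0 to 2, with 0 without embryo 1, 0 without embryo 2 and 2 without embryo 3. Over all probe sets the rule gave 862, but 530 with 50 added, 4501 with no filter and 410 with the filter on the mean, and 398 (without embryo 1) to 1712 (without embryo 3) with 1 left out. By limma the count over members was 0 in every alternative, and over all probe sets 0 to 1 with an embryo left out. Without the replicate block of embryos, limma called 0 members and 0 probe sets in all. The F test over embryos called 1 member, 0 with no filter and 0 with no trend, and 0 to 2 with an embryo left out. Over all probe sets it called 59, but 249 with median scaling, 165 with 50 added, 14 with no filter, 38 with the filter on the mean and 0 with no trend. With 1 embryo left out it called 5 (without embryo 3) to 846 (without embryo 2). The F tests with an embryo left out were added after the data were seen. In the F test of limma, the adjusted p of the second brightest Foxp1 probe set was 0.0940 with no filter and 0.213 with no trend. That probe set was also singled out after the data were seen. The log2(R/L) of Onecut2 turned to 0.0023 with quantile normalization and 0.022 as the mean of its probe sets, and that of Foxp2 turned to 0.44 as the mean of its probe sets. The same averaging moved Foxp1 from 0.49 to 0.017 and Ebf1 from −0.34 to −0.053. With 1 embryo left out log2(R/L) ran from −0.24 to 0.24 for Onecut1, −0.12 to 0.058 for Onecut2, −0.073 to 0.79 for Foxp1, −0.13 to 0.079 for Foxp2, 0.43 to 1.03 for Foxp4, −0.56 to −0.07 for Ebf1, −0.21 to 0.35 for Ebf2 and −0.049 to 0.42 for Ebf3. The cause of these changes was not tested beyond what the construction of each alternative sets. Foxp4 has no value under the filter on the mean. Signals near the limit, as in Foxp4, are the least certain.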
